A study of Macaca fascicularis with 3 samples.

Results

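The miR-148 and miR-152 family is a vertebrate microRNA (miRNA) family made of the hairpins miR-148a, miR-148b and miR-152. Its members were taken by name, as every row of the raw count table whose stem is miR-148a, miR-148b or miR-152, and 5 of the 432 listed mature miRNAs met this rule: miR-148a-3p, miR-148a-5p, miR-148b-3p, miR-148b-5p and miR-152-3p. The opposite arm of miR-152 had no row in the count table and so was not analysed here. The samples were pieces of kidney cortex from 3 untreated (naïve) cynomolgus monkeys, Macaca fascicularis, aged 2 to 3 years, with 1 small RNA library per animal. All 3 libraries form a single group without treatment or genotype, so the comparisons are between miRNAs within an animal and between animals.

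A miRNA hairpin is cut into a 5p and a 3p strand, of which usually only one is kept in the silencing complex and guides it to messenger RNAs, through pairing of the seed near its 5′ end. The 3p strands of miR-148a, miR-148b and miR-152 share their seed and so are predicted to recognise largely the same targets. The family is known for repressing the DNA methyltransferases DNMT1 and DNMT3B, and miR-148a also for repressing the xenobiotic receptor PXR, studied mainly in liver. miR-148b lies in an intron of COPZ1 and miR-152 in an intron of COPZ2, paralogous genes for a subunit of the coatomer coat of transport vesicles, whereas miR-148a lies between genes. The mature sequences were not used here.

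Counts on listed miRNAs summed to 4305977 in animal 1, 4707892 in animal 2 and 3957188 in animal 3. Levels are given as CPM, counts per 1000000 of these totals, at which a floor of 3 counts equals between 0.637 and 0.758 CPM. The renal miRNAs miR-192, miR-194 and miR-204 took between 5.31% and 6.20% of the counts. Most of this was miR-204-5p, at a mean of 48124 CPM, beside 4862 CPM for miR-194-5p and 4292 CPM for miR-192-5p. The liver miRNA miR-122 took at most 0.000882% and the neuronal miRNAs miR-124 and miR-9 at most 0.0131%. The muscle miRNAs (miR-133a with miR-133b, miR-206 and miR-1) took at most 0.0562%. The endothelial miR-126 took between 3.99% and 4.98%, miR-143 and miR-145 of smooth muscle between 2.82% and 4.44%, erythroid miRNAs (miR-451, miR-144, miR-486) between 0.437% and 0.576% and leucocyte miRNAs (miR-142, miR-150, miR-223) between 0.152% and 0.173%. Of the 391 miRNAs whose mean count reached 10, animals 1, 2 and 3 had the lowest value for 137, 90 and 164, and lay more than 4-fold below both other animals for 3, 0 and 26. The library of animal 3 stands apart in the latter count, so results that rest on it are also given without it. In whole tissue, fewer cells of a type and less RNA per cell cannot be told apart.

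The family was a moderate part of the miRNA content and was carried almost wholly by its 3p strands. It held 26462, 23294 and 21064 counts in animals 1, 2 and 3. As shares of the listed counts these were 0.615% (0.607 to 0.622, Wilson 95% interval) for animal 1, 0.495% (0.488 to 0.501) for animal 2 and 0.532% (0.525 to 0.540) for animal 3. The share was thus highest in animal 1 and lowest in animal 2, with intervals that did not overlap, and these intervals cover counting error only. Its mean was 0.547% ± 0.0613 (SD, n = 3), and 0.555% over animals 1 and 2 alone. The pair of 5p strands made 0.902% of the family's 70820 counts.

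miR-148a-3p, the guide strand of the miR-148a hairpin, was the leading member. It had 21102, 17655 and 15833 counts in animals 1, 2 and 3, which are 4901, 3750 and 4001 CPM. By CPM it was highest in animal 1, with animals 2 and 3 close together. After scaling for library composition (TMM, described with the spans) the values were 4848, 3565 and 4255 CPM. Animal 3 then lay between the others, slightly nearer to animal 1 (log2 difference -0.19) than to animal 2 (0.26). Its mean level was 4217 CPM ± 605 (SD, n = 3), which placed it at rank 43 of the 432 miRNAs by mean CPM and at ranks 39, 46 and 42 in the single libraries. The next miRNA above it was miR-192-5p, a renal miRNA at 4292 CPM ± 425, and the next below was miR-15a-5p at 4210 CPM ± 625 (both SD, n = 3). miR-148a-3p exceeded miR-192-5p in 1 of 3 animals and miR-15a-5p in 2 of 3, so neither order was resolved beyond the spread between animals.

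miR-152-3p, the guide strand made from the COPZ2 intron, came next within the family. Its counts were 2887, 3251 and 3090, or 670, 691 and 781 CPM in animals 1, 2 and 3. Animals 1 and 2 were nearly level, with overlapping Wilson intervals of 646 to 695 and 667 to 715 CPM, and animal 3 was higher (754 to 809). The mean of 714 CPM ± 58.8 (SD, n = 3) stood at rank 92. Its neighbours in the order of mean CPM, miR-503-5p above and miR-128a-3p below, were each exceeded by it in 1 of 3 animals, so these places were not resolved either.

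miR-148b-3p, the guide strand from the COPZ1 intron, was the lowest of the 3p strands. It had 2338, 2153 and 1872 counts, equal to 543, 457 and 473 CPM in animals 1, 2 and 3. Animal 1 was highest and animal 2 lowest, as for miR-148a-3p, and after TMM scaling, at 537, 435 and 503 CPM, animal 3 again lay nearer to animal 1 than to animal 2. The mean was 491 CPM ± 45.6 (SD, n = 3) at rank 101, between miR-150-5p, a lymphocyte miRNA, and miR-214-3p. miR-148b-3p exceeded each of these neighbours in 1 of 3 animals.

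The 5p strands, the passenger strands of the miR-148a and miR-148b hairpins, were present at low level. miR-148b-5p had 74, 154 and 135 counts in animals 1, 2 and 3, which are 17.2, 32.7 and 34.1 CPM with a mean of 28.0 CPM ± 9.40 (SD, n = 3). It was low in animal 1 and about equal in the other libraries. miR-148a-5p had 61, 81 and 134 counts, or 14.2, 17.2 and 33.9 CPM, with a mean of 21.7 CPM ± 10.6 (SD, n = 3). Here animals 1 and 2 were low and animal 3 was high. By CPM miR-148b-5p was the higher of the 5p strands in every animal, though by little in animal 3 (34.1 against 33.9). Their Wilson intervals, which cover counting error only, overlapped in animals 1 and 3. In animal 2 they were separate, at 27.9 to 38.3 CPM for miR-148b-5p and 13.8 to 21.4 for miR-148a-5p. The difference between the 5p strands over animals was not tested. Both strands lay above the floor of 3 counts in every library.

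**Figure D1:**
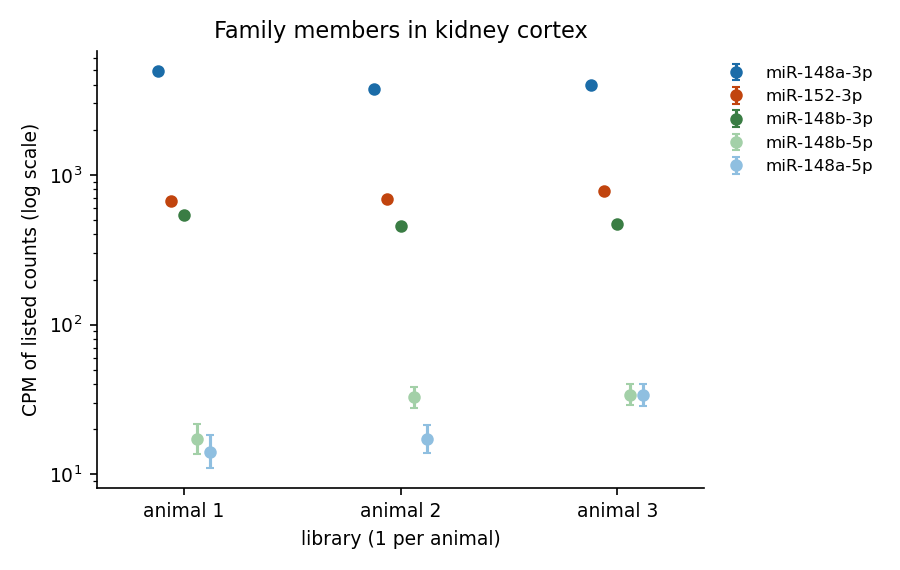
Level of each of the 5 family members in the library of each animal, as CPM of listed counts on a log axis, with bars for the Wilson 95% confidence interval. miR-148a-3p lies between 3750 and 4901 CPM in all 3 animals, miR-152-3p and miR-148b-3p between 457 and 781 CPM, and the 5p strands between 14.2 and 34.1 CPM.

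The order of the 3p strands was the same in every animal. miR-148a-3p exceeded miR-148b-3p 9.03-fold in animal 1, 8.20-fold in animal 2 and 8.46-fold in animal 3, a mean log2 difference of 3.09 ± 0.07 (SD, n = 3). The counting intervals of this ratio, 8.65 to 9.42, 7.84 to 8.58 and 8.06 to 8.87, were separate between animals 1 and 2 and overlapped in the other pairs of animals. These guide strands, from hairpins at separate loci, both had their highest CPM in animal 1 and their lowest in animal 2, but in the authors' signal, which leaves library size in, miR-148b-3p was lowest in animal 3.

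The ratios to miR-152-3p were less uniform. miR-148a-3p exceeded miR-152-3p 7.31-fold in animal 1, 5.43-fold in animal 2 and 5.12-fold in animal 3, a mean log2 difference of 2.55 ± 0.27 (SD, n = 3). miR-152-3p exceeded miR-148b-3p 1.23-fold, 1.51-fold and 1.65-fold in the same animals, a mean log2 difference of 0.54 ± 0.21 (SD, n = 3). In both ratios animal 1 stood on the side of the miR-148 strands, and its counting interval overlapped with neither of the others. Each of these 3 pairs kept its direction in 3 of 3 animals, and an exact permutation test by sign flips (two-sided) gave p = 0.25 for each, also 0.25 after Benjamini-Hochberg adjustment over the 3 pairs, which is the lowest p reachable with 3 animals. Because the strands differ in sequence, and ligation and amplification can favour one sequence over another, a ratio of counts is not a ratio of molecules.

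**Figure D2:**
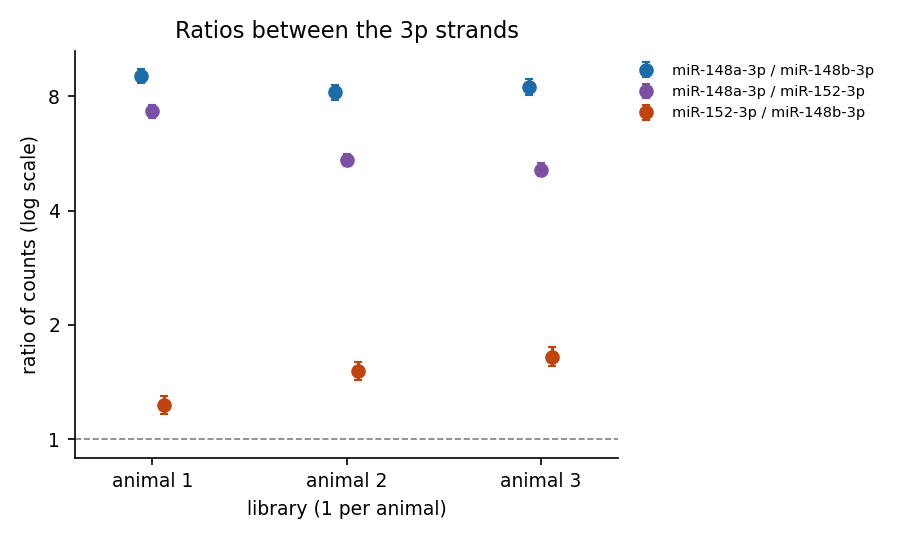
Ratio of counts between pairs of 3p strands in each animal, on a log axis, with bars for the 95% counting interval and a dashed line at equal counts. The ratio of miR-148a-3p to miR-148b-3p stays between 8.20 and 9.03, while that of miR-148a-3p to miR-152-3p runs from 7.31 in animal 1 to 5.12 in animal 3.

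As shares of the family, miR-148a-3p made 79.7%, 75.8% and 75.2% in animals 1, 2 and 3, a mean of 76.9% ± 2.48 (SD, n = 3). miR-152-3p made 10.9%, 14.0% and 14.7%, a mean of 13.2% ± 2.00. miR-148b-3p made 8.84%, 9.24% and 8.89%, a mean of 8.99% ± 0.222, and its Wilson intervals overlapped in all 3 libraries. The share held by miR-148b-3p was thus even across animals, and the share of miR-152-3p was lower in animal 1 than in the other animals, with intervals of 10.5 to 11.3, 13.5 to 14.4 and 14.2 to 15.2.

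The spread between animals was measured as the span, the highest over the lowest animal after scaling by TMM (the trimmed mean of M values, which adjusts library totals for composition). The 3p strands had spans of 1.36-fold for miR-148a-3p, 1.26-fold for miR-152-3p and 1.24-fold for miR-148b-3p. The 5p strands had larger ones, 2.13-fold for miR-148b-5p and 2.57-fold for miR-148a-5p. Over the 391 miRNAs whose mean count reached 10, which include all 5 members, the median span was 1.71-fold. Spans over 2-fold were found in 2 of the 5 members, beside 39.9% of the 391 miRNAs, but miR-148b-5p was at the limit, with 1.99-fold by library totals and 2.00-fold in the authors' signal. Smaller spans than that of miR-148b-3p were found in 12.5% of the 391 miRNAs, smaller ones than that of miR-152-3p in 15.1% and smaller ones than that of miR-148a-3p in 22.5%. For miR-148b-5p and miR-148a-5p these percentages were 66.0% and 76.5%. The 391 miRNAs are not matched to the members by level. The neighbours of miR-148a-3p in mean CPM, miR-192-5p and miR-15a-5p, had smaller spans than it, 1.27-fold and 1.20-fold. Those of miR-152-3p (1.58-fold and 1.62-fold) and of miR-148b-3p (1.55-fold and 1.42-fold) had larger ones. No member was lowest in animal 3: the 3p strands were lowest in animal 2 and the 5p strands in animal 1 after TMM scaling. By library totals miR-152-3p was lowest in animal 1 instead, its log2 difference of animal 2 over animal 1 being -0.01 with TMM and 0.04 with totals.

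Without animal 3 the span of miR-152-3p was 1.01-fold and that of miR-148a-5p 1.17-fold, whereas miR-148a-3p and miR-148b-3p kept 1.36-fold and 1.24-fold. The span of miR-148b-5p was 1.83-fold between animals 1 and 2 and 1.17-fold between animals 2 and 3. Over the 391 miRNAs the median span between animals 1 and 2 was 1.28-fold, so miR-148a-3p lay above it and miR-148b-3p slightly below it. The high value of miR-148a-5p and that of miR-152-3p therefore rest on the library of animal 3, and the larger span of miR-148b-5p on the low value in animal 1.

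**Figure D3:**
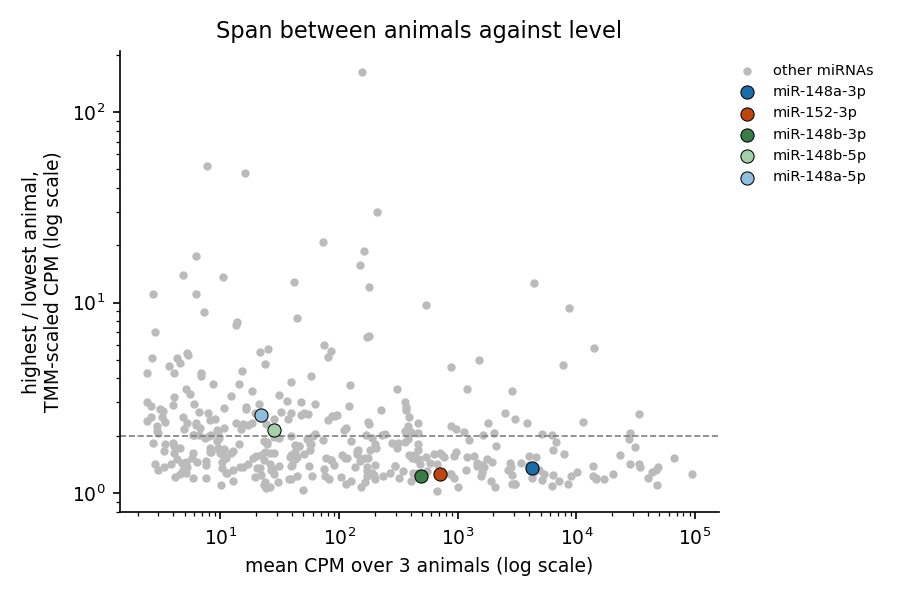
Highest over lowest animal after TMM scaling against the mean level in CPM, both on log axes, for miRNAs whose mean count reached 10; 3 miRNAs with an animal at 0 counts are not drawn, and the dashed line marks 2-fold. The 3p strands of the family lie between 1.24-fold and 1.36-fold, and the 5p strands at 2.13-fold and 2.57-fold among miRNAs of similarly low level.

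A chi-square test of homogeneity, which sets the counts of each miRNA against the TMM-scaled library sizes, called all 5 members different between the libraries at an adjusted p under 0.05 (Benjamini-Hochberg over 391 miRNAs), beside 80.6% of the 391. At this depth the test calls most miRNAs, so the members' count is close to the background. It compares 3 libraries against counting error, and a difference between animals and a difference between library preparations cannot be told apart. The adjusted p ran from 1.73e-198 for miR-148a-3p to 5.96e-07 for miR-148b-5p. Leaving out 1 library ended some of these calls: miR-148b-5p had an adjusted p of 0.245 without animal 1, miR-148b-3p one of 0.698 without animal 2, and miR-152-3p and miR-148a-5p had 0.768 and 0.466 without animal 3. miR-148a-3p was called in each of these 3 tests. Over all miRNAs the share called also fell, to 65.2%, 75.4% and 59.2% without animals 1, 2 and 3, so nothing particular to the members is read from the lost calls.

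The use of the hairpin arms was then compared inside each library, which needs no scaling. In the miR-148a hairpin the 3p arm outnumbered the 5p arm 346-fold in animal 1, 218-fold in animal 2 and 118-fold in animal 3. The 5p arm accordingly made 0.288% of both arms (Wilson 95% interval 0.224 to 0.370) for animal 1, 0.457% (0.368 to 0.567) for animal 2 and 0.839% (0.709 to 0.993) for animal 3. The 5p share was lowest in animal 1 and highest in animal 3, with little overlap of the intervals of animals 1 and 2 and none with animal 3. In animal 1 this hairpin had the highest level of its 3p strand and the lowest of its 5p strand.

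In the miR-148b hairpin the 3p arm outnumbered the 5p arm 31.6-fold, 14.0-fold and 13.9-fold in animals 1, 2 and 3. Its 5p arm made 3.07% of both arms (Wilson 95% interval 2.45 to 3.83) for animal 1, 6.68% (5.73 to 7.77) for animal 2 and 6.73% (5.71 to 7.91) for animal 3. Animals 2 and 3 were equal and animal 1 lay below them with no overlap. In both hairpins, then, the passenger strand had its smallest share in animal 1. The lesser arm was also lowest there in hairpins such as let-7a and miR-200a, but highest there in others, such as miR-106a and miR-145. Nothing particular to the family is read from this.

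The hairpins differed in how one-sided they were. The mean 5p share was 0.528% ± 0.282 (SD, n = 3) for miR-148a and 5.49% ± 2.10 for miR-148b. As mean 3p shares these were 99.47% and 94.51%, and without animal 3 they were 99.63% and 95.13%. Within animals the odds of the 5p arm were between 8.52-fold and 15.6-fold higher in miR-148b, in 3 of 3 animals, with a log2 difference averaging 3.50 ± 0.44 (SD, n = 3). The exact permutation test by sign flips again gave the lowest reachable p, 0.25 (two-sided). Among 122 hairpins with both arms listed, 24 had a smaller share of the lesser arm than miR-148a and 62 had a smaller one than miR-148b, the median being 5.15%. The 3p arm led in 55 of the 122, and among these 55 the lesser arm had a median share of 9.09%. There miR-148a stood at rank 9 and miR-148b at rank 23 from the most one-sided. Hairpins without both arms listed under matching names, such as miR-152, did not enter. Hairpins whose lesser arm was too rare to be listed may thus be missing, and the ranks and medians hold among the listed pairs only.

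A chi-square test of arm by library called both family hairpins different between libraries, beside 67.2% of the 122 hairpins, with adjusted p of 2.05e-12 for miR-148a and 6.27e-09 for miR-148b (Benjamini-Hochberg over 122 hairpins). The odds of the lesser arm spanned 2.91-fold between animals in miR-148a and 2.27-fold in miR-148b, and the median over the 122 hairpins was 2.30-fold. Smaller spans of these odds than in miR-148a were found in 58.2% of the hairpins, and smaller ones than in miR-148b in 48.4%, so the family stood near the middle. The miR-148a span and its place rest on animal 3, with 3p over 5p at 346-fold, 218-fold and 118-fold in animals 1, 2 and 3. Spans of these odds were not calculated without animal 3. The miR-148a call held in each test without 1 animal, with the highest adjusted p, 0.0190, without animal 3. For miR-148b the adjusted p was 0.969 without animal 1. Over the 122 hairpins the number called was 82, and 41 without animal 3. The share of the lesser arm was highest in animal 3 in 48 of the 122, in animal 1 in 43 and in animal 2 in 31.

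**Figure D4:**
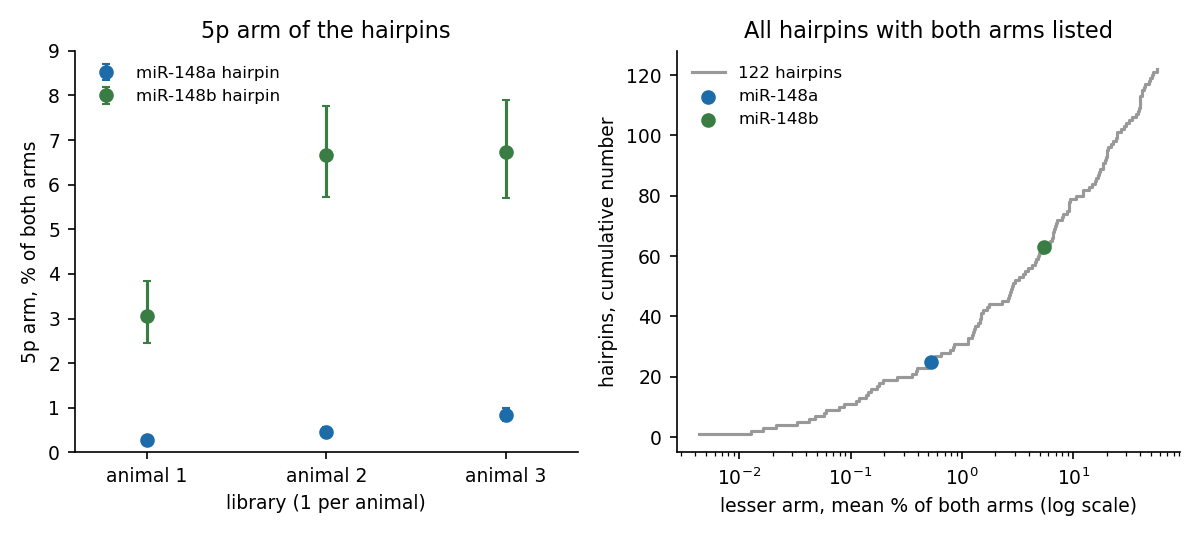
Left, share of the 5p arm in the miR-148a and miR-148b hairpins in each animal, as percent of both arms with Wilson 95% confidence intervals; right, cumulative number of the 122 hairpins by the mean share of their lesser arm, on a log axis, with the family hairpins marked. The 5p share runs from 0.288% to 0.839% in miR-148a and from 3.07% to 6.73% in miR-148b, and miR-148b lies near the middle of the 122 hairpins.

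Other miRNAs known for repressing DNA methyltransferase transcripts were set beside the family, as a list of 7: miR-29a, miR-29b and miR-29c, described for DNMT3A and DNMT3B, miR-143, described for DNMT3A, and miR-126, miR-185 and miR-342, described for DNMT1. On their more abundant strand 5 of the 7 had a higher mean level than miR-148a-3p. miR-126 led with 43515 CPM ± 5497, followed by miR-29b-3p with 39929 CPM ± 3192 and miR-29c-3p with 28572 CPM ± 4190 (each SD, n = 3). miR-29a-3p had 13896 CPM ± 1512 and miR-143-3p 6387 CPM ± 1563, and below miR-148a-3p stood miR-342-3p with 2874 CPM ± 1502 and miR-185-5p with 924 CPM ± 70.7 (each SD, n = 3). All 7 lay above miR-152-3p and miR-148b-3p by mean CPM. The animals of miR-342-3p, at 2757, 1434 and 4431 CPM, overlapped with those of miR-148a-3p.

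The list had a median span of 1.39-fold, and its members ran from 1.21-fold to 3.46-fold, the widest being miR-342-3p, with 1 of 7 over 2-fold beside 39.9% of the 391 miRNAs. The span of miR-342-3p was 2.00-fold without animal 3 and 1.73-fold without animal 2. The chi-square test called 7 of 7 different between libraries, beside 80.6%. The family's 3p strands, from 1.24-fold to 1.36-fold, lay within the range of the list.

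**Figure D5:**
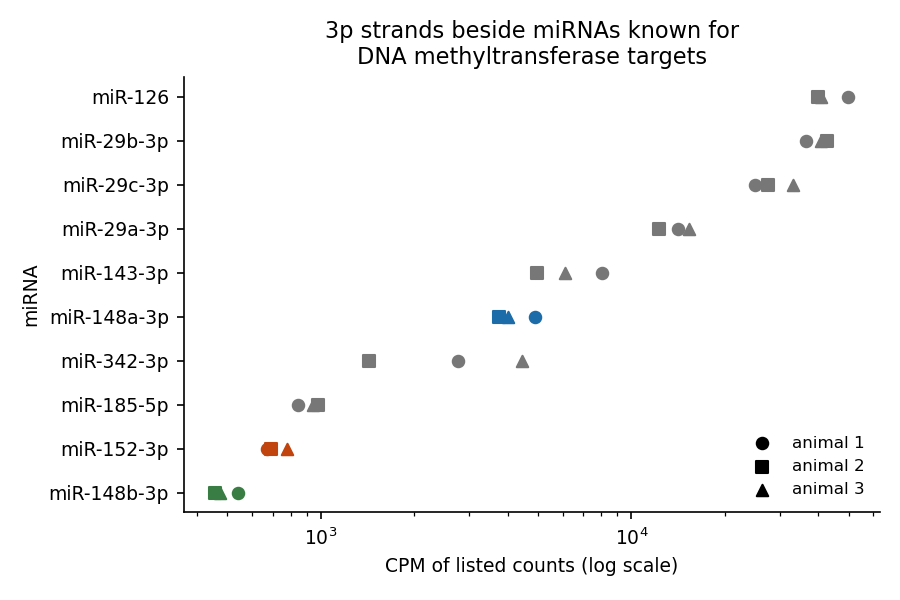
Level in each animal (circle, square and triangle for animals 1, 2 and 3) of the family's 3p strands, in colour, and of 7 other miRNAs known for DNA methyltransferase targets, in grey, as CPM on a log axis. miR-148a-3p stands between miR-143-3p and miR-342-3p, and miR-152-3p and miR-148b-3p take the lowest places.

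A pair of other families gave a scale for these values. The miR-29 family took 7.57%, 8.26% and 8.95% of the counts in animals 1, 2 and 3, and the miR-130 and miR-301 family 0.0492%, 0.0624% and 0.0351%, so that the miR-148 and miR-152 family lay between them in every animal. Spans over 2-fold were found in 1 of 5 tested names of the miR-29 family and in 3 of 5 of the miR-130 and miR-301 family, against 2 of 5 in the miR-148 and miR-152 family. Without animal 3 no tested name of these families spanned over 2-fold: the widest were 1.68-fold, 1.73-fold and 1.83-fold, in the same order, and 8.95% of the 391 miRNAs did so. The counts of miR-130b-3p were 61, 40 and 1, the last, in animal 3, being under the floor of 3 counts. These differences between families were not tested.

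The profile of each 3p strand over the 3 animals was finally compared with those of 176 other miRNAs having a mean level of at least 100 CPM, by the distance between log2 profiles after removal of each miRNA's mean. The closest to miR-148a-3p were miR-708-5p, with 1016, 826 and 734 counts in animals 1, 2 and 3, miR-126 and miR-379-5p, at log2 distances of 0.04, 0.05 and 0.06. The closest to miR-148b-3p were miR-196b-5p, with 2208, 1961 and 1739 counts, miR-26b-5p and miR-126, at distances of 0.04, 0.06 and 0.07. The closest to miR-152-3p were miR-374b-5p, with 6353, 7238 and 6707 counts, miR-660-3p and miR-361-3p, at distances of 0.03, 0.05 and 0.05. The endothelial miR-126 was among the closest to both miR-148 strands and was not so for miR-152-3p. Within the family, miR-148a-3p and miR-148b-3p lay 0.10 apart, while miR-152-3p lay 0.39 from miR-148a-3p and 0.30 from miR-148b-3p. With 3 animals such likeness is a description of 3 points that share their libraries.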

How the data were processed

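The deposited raw counts come from reads that matched M. fascicularis miRNAs with 0 mismatches, per the file headers, for miRNAs with at least 15 reads. Aligner, reference release and the treatment of reads fitting several miRNAs are not given in the sources used here. Reads that fit several names could therefore be divided between them. Whether any read fits both miR-148a-3p and miR-148b-3p was not examined. The second deposited table holds a normalized signal made by the authors in edgeR (per the file headers) and was used as an alternative only. No molecular identifiers are described in the labels' protocols, and intervals cover counting error only.

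CPM, shares and Wilson intervals were computed from the raw counts (SciPy 1.17.1), TMM factors with edgeR 4.0.16 in R 4.3.3. Relative to library totals, TMM raised animal 3 over animal 2 by 0.16 and DESeq2 1.42.0 size factors by 0.23 (log2). Differences between libraries were tested across all miRNAs whose mean count reached 10 by chi-square, arm use across hairpins with a combined mean count of at least 10 by a chi-square test of arm by library (13 hairpins, none of this family, had an expected count under 5). Both tests were checked on simulated counts that held counting error only, so the check does not cover calls made under a spread between animals. For the test between libraries, library totals stood in place of TMM-scaled sizes. For the arm test, arm sums and shares were drawn from set ranges, and the 5p share of miR-148a lay below the range of shares. The check therefore does not cover an arm share as low as that of miR-148a. Order within animals used log2(CPM + 1) and exact sign-flip permutation. Intervals of count ratios are 95% Poisson intervals on the log scale.

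Named are all members, for each 3p strand its 3 nearest profiles and its neighbours in mean CPM, and the fixed lists. The 0 further columns of per-sample values were left out. Shared seeds were not searched, since mature sequences were not used here. The members and lists were chosen with earlier results of these data known.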

Additional observations from a re-analysis of the deposited data

How the results depend on the processing

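Of 81 recalculated values of the comparison results, 74 stayed within the spread between animals or, for numbers of miRNAs and hairpins, within 1.5 times; many of these could hardly move, since single factors per library leave within-library shares and, apart from the pseudocount, profile distances as they are. The other 7 all left out 1 animal. The number of members called by chi-square, 5, was 3 to 4 in the tests without 1 animal, the lowest without animal 3, while the share called over all miRNAs fell to 65.2%, 75.4% and 59.2% without animals 1, 2 and 3. With one animal left out, spans ranged from 1.08-fold to 1.36-fold for miR-148a-3p, 1.01 to 1.24 for miR-148b-3p (both lowest without animal 2), 1.01 to 1.32 for miR-152-3p, 1.17 to 2.71 for miR-148a-5p (both lowest without animal 3) and 1.17 to 2.25 for miR-148b-5p (lowest without animal 1). Such spans use 2 animals in place of 3, with TMM factors computed anew for those animals. Some of them therefore exceed the spans over 3 animals. Hairpins with differing arm shares numbered 82 of 122 and from 41 to 72 with one animal left out. The order of the 3p strands kept its direction under every setting tried. No paired analysis was possible because all libraries belong to 1 group, and the sign-flip tests pair strands within an animal, not samples. Precision was limited by 3 animals for all members, and by 61 to 154 counts per library for the 5p strands.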
